A study of Mus musculus with 8 samples.

Results

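The 3 sestrin genes and 7 genes of autophagy were followed in regulatory T (Treg) cells of mice with and without Foxp1. They were picked by gene symbol, with earlier results of these data known: Sesn1, Sesn2, Sesn3, Ulk1, Atg7, Map1lc3b, Gabarapl1, Gabarapl2, Sqstm1 and Bnip3l. These are 10 of the 27594 genes in the deposited tables, and all 10 were among the 14540 genes that passed the filter on low counts. The study used RNA sequencing to ask which transcripts depend on the forkhead factor Foxp1 in resting Treg (rTreg) and activated Treg (aTreg) cells. Wild-type (WT) cells came from Foxp3-YFP-Cre mice and Foxp1-deficient cells from Foxp1fl/fl Foxp3-YFP-Cre mice, so both genotypes carried the Cre allele. All mice were of the C57BL/6 strain and 6 to 8 weeks old, and spleen and peripheral lymph nodes supplied the cells. Cre and the yellow fluorescent reporter are made from the Foxp3 locus, which confines deletion to cells that express or once expressed Foxp3. CD4+ YFP+ cells were sorted by surface markers, among them CD44, which was low on rTreg cells and high on aTreg cells, with 2 libraries in each of the 4 groups. The labels do not name the animals behind a library or say how many there were, but the Xist and Y-linked counts given with the library totals show that the 2 libraries of each group did not come from the same mouse.

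Sestrins are stress-inducible proteins that restrain mTORC1 by way of the GATOR2 complex, which Sesn1 and Sesn2 bind when leucine is scarce. They thereby check growth, since mTORC1 is the kinase complex that drives it. When mTORC1 is low, the kinase Ulk1 starts autophagy, the E1-like enzyme Atg7 activates the small Atg8-like proteins (encoded by Map1lc3b, Gabarapl1 and Gabarapl2) for coupling to membrane lipid, and receptors such as Sqstm1 (p62) and Bnip3l (Nix) bring cargo to the growing autophagosome. In T cells this control of mTORC1 and of autophagy bears on quiescence and survival, and Treg cells need autophagy to stay stable.

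Foxp1, the targeted gene, had 353 and 384 CPM (counts scaled by library total after TMM normalization) in WT rTreg cells and 342 and 338 CPM in Foxp1-deficient rTreg cells. In aTreg cells it had 234 and 230 CPM in WT and 126 and 102 CPM in Foxp1-deficient libraries. The count over the whole gene was thus lower in Foxp1-deficient aTreg cells (log2 fold change -1.03 ± 0.10 SE, adjusted p = 0.00194), but in rTreg cells it did not pass the test (log2 fold change -0.12 ± 0.09, adjusted p = 0.460). The deposited counts do not separate the deleted part of the gene, so this count did not check the labels of the rTreg libraries. Counts on genes summed to between 6373170 and 15268623 per library, at which 3 counts equal 0.471 to 0.196 CPM, a floor that covers counting error only. All 6 Treg markers (Foxp3, Il2ra, Ctla4, Ikzf2, Cd4 and Cd3e) were above 3 counts in every library, with a summed level of 2788 to 4317 CPM. In each group replicate 1 had Y-linked counts (2143 to 4356 over 4 genes) and at most 3 Xist counts, whereas replicate 2 had 15098 to 21822 Xist counts and 0 Y-linked counts, so the replicate number also marks sex.

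Sequence upstream of the start site is printed for the 3 members whose level passed the test between genotypes, namely Sesn1, Sesn2 and Gabarapl1. The sequences are from RefSeq (build GRCm38.p6), run 5′ to 3′ on the gene's strand, begin 250 bases before the start site, and hold at most 30 bases of the gene's own exons as GENCODE annotates them. For Sesn1 (chr10:41887189-41887438, plus strand) it is the downstream of 2 start sites. The Sesn2 stretch (chr4:132510472-132510706, minus strand) stops 16 bases before the start, and the Gabarapl1 stretch (chr6:129532942-129533189, plus strand) stops 3 bases before it. Capitals mark the match to a motif that was searched.
Sesn1: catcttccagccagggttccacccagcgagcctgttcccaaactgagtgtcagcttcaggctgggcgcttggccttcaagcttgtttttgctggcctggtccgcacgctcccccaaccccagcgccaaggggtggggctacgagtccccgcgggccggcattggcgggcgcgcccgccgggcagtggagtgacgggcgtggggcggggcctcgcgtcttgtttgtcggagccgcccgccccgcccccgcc
Sesn2: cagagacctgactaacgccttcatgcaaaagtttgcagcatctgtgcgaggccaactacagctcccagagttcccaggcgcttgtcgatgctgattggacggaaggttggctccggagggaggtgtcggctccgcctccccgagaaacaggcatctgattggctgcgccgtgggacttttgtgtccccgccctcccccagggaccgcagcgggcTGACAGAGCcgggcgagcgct
Gabarapl1: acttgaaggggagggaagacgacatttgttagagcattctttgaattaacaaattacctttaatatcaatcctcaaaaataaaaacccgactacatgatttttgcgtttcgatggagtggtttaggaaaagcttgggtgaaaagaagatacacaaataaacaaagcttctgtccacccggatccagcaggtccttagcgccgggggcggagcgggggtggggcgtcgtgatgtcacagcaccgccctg

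Promoter windows were found for 9 of the 10 genes, with 10 windows in all because Sesn1 has 2 start sites. Both strands of each 250-base window were searched for 5 motifs, and a match describes letters, not a bound site. Neither forkhead form that was searched, TGTTTAC or TATTTAC, was in any of the 10 windows, against 3.17% and 2.73% of the 32851 windows of all genes. Other forms of the forkhead site were not searched. The amino acid response element letters TGATGNAA, which the stress factor ATF4 is known to bind, were in 0 of 10 windows and in 3.45% of all windows. The E-box CACGTG, which reads the same on both strands, stood once, 132 to 127 bases before the Atg7 start (6.02% of all windows). The antioxidant response element letters TGACNNNGC stood once, 36 to 28 bases before the Sesn2 start, in the first exon as GENCODE annotates it, and are the capitals above (10.2% of all windows). No match overlapped another.

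Across genes, levels were compared per length, as FPKM. Sqstm1 was highest in every library (60.2 to 78.7 FPKM, median 69.5), ahead of Bnip3l (median 30.3), Sesn1 (27.6), Sesn3 (27.3), Map1lc3b (21.1), Gabarapl2 (18.0) and Ulk1 (13.3 FPKM). Sesn2 (median 5.63 FPKM), Gabarapl1 (5.57) and Atg7 (4.60) were lowest. Their order changed between groups: Gabarapl1 was last in Foxp1-deficient rTreg cells (1.04 to 1.64 FPKM), and Sesn2 was last in WT rTreg cells (2.19 to 2.51 FPKM), where its range overlapped that of Gabarapl1 (2.13 to 2.81 FPKM). Bnip3l, Sesn1 and Sesn3 also traded places, with Sesn1 at 38.8 to 50.5 FPKM in WT rTreg and 13.6 to 17.3 FPKM in Foxp1-deficient aTreg cells, a wider spread over the groups than that of Bnip3l (24.0 to 35.4 FPKM over all 8 libraries).

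Sesn1 was the member that fell with loss of Foxp1 in both subsets. This sestrin is a known target of p53 and of FoxO factors, and its gene lies on chromosome 10 (GRCm38 41809935 to 41908424, plus strand). It had 154 and 206 CPM in WT rTreg cells against 89.6 and 103 CPM in Foxp1-deficient rTreg cells. In aTreg cells it had 117 and 145 CPM in WT against 52.7 and 70.2 CPM in Foxp1-deficient libraries. All Foxp1-deficient libraries lay below the WT libraries of the same subset, and no ranges overlapped. The log2 fold change was -0.89 ± 0.07 (SE) in rTreg cells (adjusted p = 0.000698, edgeR) and -1.10 ± 0.07 in aTreg cells (adjusted p = 0.000598), that is 1.86-fold and 2.14-fold lower levels. The difference between these effects did not pass the test (log2 -0.21 ± 0.10, adjusted p = 0.458). In both comparisons the call rested on the replicate block, since adjusted p was 0.0760 in rTreg and 0.0789 in aTreg cells with no replicate block, at log2 fold changes of -0.90 and -1.09. In a bulk library, fewer cells that express a gene and less RNA per cell cannot be told apart.

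**Figure D1:**
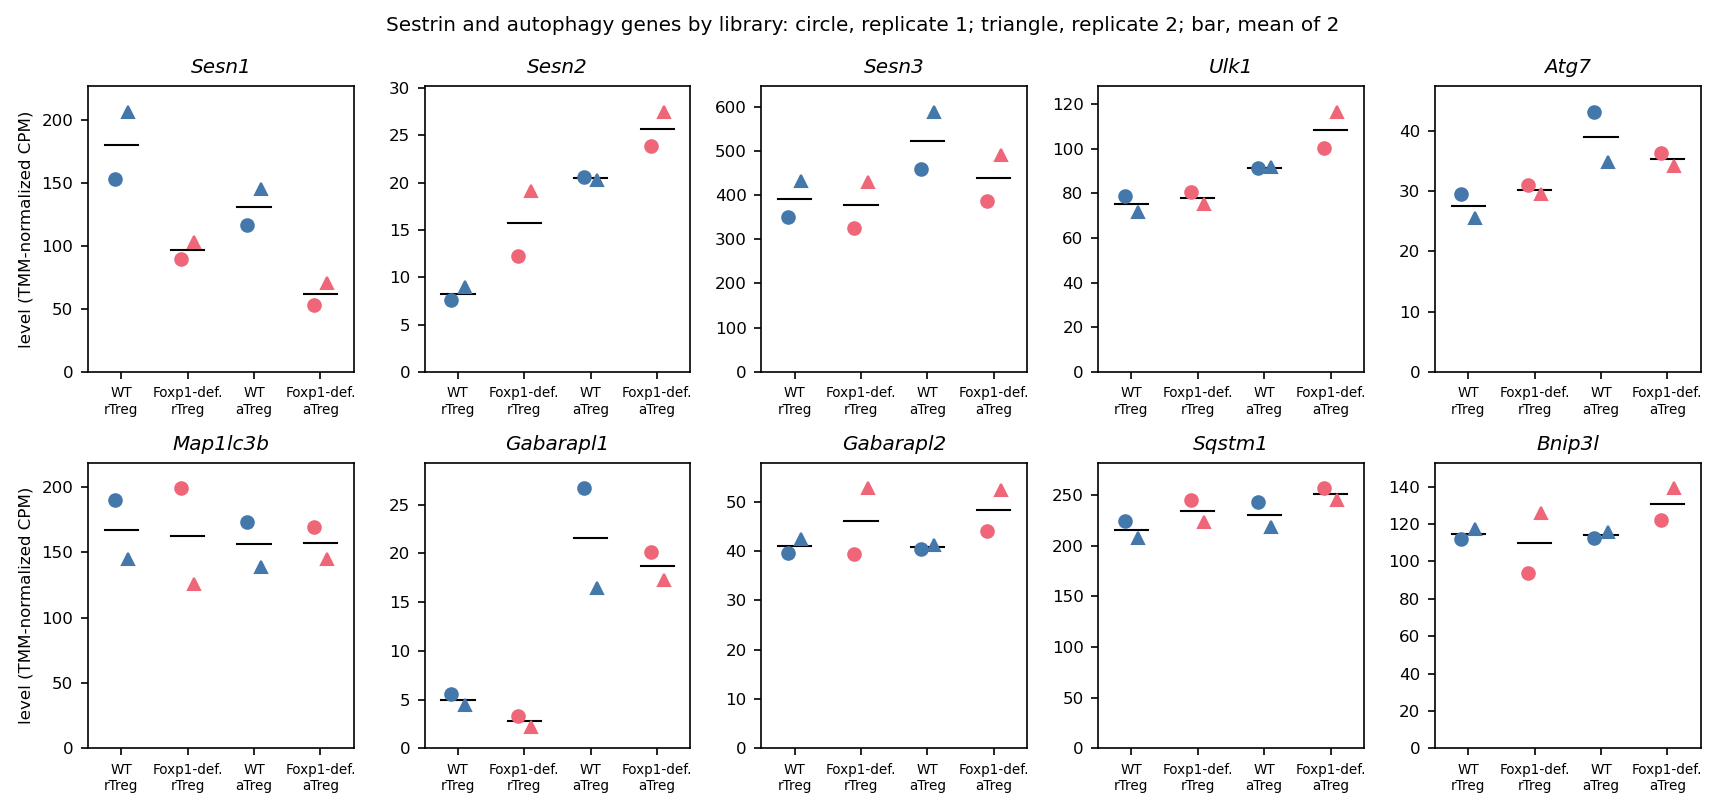
TMM-normalized CPM (y axes, linear and starting at 0) of the 10 sestrin and autophagy genes in the 4 groups (x axes), with a circle for replicate 1, a triangle for replicate 2 and a bar for their mean. Sesn1 is highest in WT rTreg (154 and 206 CPM) and lowest in Foxp1-deficient aTreg cells (52.7 and 70.2 CPM). Sesn2 steps up from left to right, and Gabarapl1 is at 16.4 to 26.7 CPM in aTreg and 2.17 to 5.62 CPM in rTreg libraries.

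Sesn1 was also lower in aTreg than in rTreg cells of either genotype, by less than the 2-fold set for subset comparisons. The log2 fold change was -0.45 ± 0.07 in WT (adjusted p = 0.00243) and -0.66 ± 0.07 in Foxp1-deficient cells (adjusted p = 0.000351). With no replicate block these adjusted p-values were 0.173 and 0.0541. Ordered by mean, the groups ran from WT rTreg (180 ± 37.4 CPM, SD, n = 2) through WT aTreg (131 ± 20.2) and Foxp1-deficient rTreg (96.4 ± 9.64) to Foxp1-deficient aTreg cells (61.4 ± 12.3 CPM), and no neighbours in that order overlapped. WT aTreg and Foxp1-deficient rTreg cells were not tested against each other. The comparisons of subset and genotype share libraries, so they are not independent of each other.

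Sesn2, the sestrin that is best known as a target of the stress factors ATF4 and Nrf2, went the other way. On chromosome 4 (132492032 to 132510501, minus strand), it had 7.55 and 8.96 CPM in WT rTreg and 12.3 and 19.1 CPM in Foxp1-deficient rTreg cells. In aTreg cells it had 20.6 and 20.3 CPM in WT and 23.9 and 27.5 CPM in Foxp1-deficient libraries. WT rTreg libraries were lowest, and ranges did not overlap between genotypes in either subset. The rise in Foxp1-deficient rTreg cells was 1.93-fold (log2 fold change 0.95 ± 0.17, adjusted p = 0.0152). In aTreg cells the log2 fold change of 0.33 ± 0.15 did not pass the test (adjusted p = 0.239). The difference between both effects did not pass either (log2 -0.61 ± 0.23, adjusted p = 0.315). The call in rTreg cells was lost with no replicate block (log2 fold change 0.95, adjusted p = 0.0915). It was also lost without WT rTreg replicate 1 (adjusted p = 0.0794), WT rTreg replicate 2 (adjusted p = 0.114) or Foxp1-deficient rTreg replicate 2 (adjusted p = 0.175, log2 fold change 0.64).

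Between subsets, Sesn2 was 2.47-fold higher in WT aTreg than in WT rTreg cells (log2 fold change 1.31 ± 0.17, adjusted p = 0.000913). Among Foxp1-deficient cells the log2 fold change was 0.69 ± 0.16 (adjusted p = 0.00996), under the 2-fold threshold, and adjusted p was 0.0563 with no replicate block. By mean level the groups were ordered as WT rTreg cells (8.25 ± 0.99 CPM, SD, n = 2), Foxp1-deficient rTreg cells (15.7 ± 4.85), WT aTreg cells (20.4 ± 0.26) and then Foxp1-deficient aTreg cells (25.7 ± 2.52), and no neighbours overlapped. Markers of dividing cells (Mki67, Top2a and Ccnb1) also differed between the groups, with a sum of 13.7 to 18.9 CPM in WT rTreg, 98.8 to 136 CPM in Foxp1-deficient rTreg, 86.7 to 157 CPM in WT aTreg and 273 to 383 CPM in Foxp1-deficient aTreg libraries. Granulocyte markers (S100a8, S100a9 and Mpo) were all at or under 3 counts in WT rTreg cells, and summed to 4.26 to 10.2 CPM in Foxp1-deficient rTreg, 1.80 to 2.63 CPM in WT aTreg and 2.30 to 22.0 CPM in Foxp1-deficient aTreg libraries. The plasma cell markers (Jchain and Sdc1) summed to 0.393 to 2.03, 4.77 to 7.49, 2.56 to 3.07 and 3.23 to 11.6 CPM in the same order of groups. The part of any of these markers in the sestrin differences was not tested.

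Sesn3, likewise a known FoxO target, is on chromosome 9 (14275067 to 14333101, plus strand). Its level was 350 and 431 CPM in WT rTreg and 326 and 429 CPM in Foxp1-deficient rTreg cells. In aTreg cells it was 458 and 588 CPM in WT and 387 and 490 CPM in Foxp1-deficient libraries. Genotype ranges overlapped in both subsets, and each replicate 2 library was above the replicate 1 library of its group. The log2 fold change between genotypes was -0.05 ± 0.05 in rTreg cells (adjusted p = 0.548). In aTreg cells it was -0.25 ± 0.05 (adjusted p = 0.0289), short of 1.5-fold, and adjusted p rose to 0.692 with no replicate block and to 0.194 without Foxp1-deficient aTreg replicate 2. Sesn3 was higher in aTreg than in rTreg cells by 0.42 ± 0.05 on the log2 scale in WT (adjusted p = 0.000720) and by 0.22 ± 0.05 in Foxp1-deficient cells (adjusted p = 0.0116), again under the fold threshold and, with no replicate block, at adjusted p-values of 0.207 and 0.491.

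Put together per length, the makeup of sestrin transcripts differed with both subset and genotype. Sesn1 made up 60.6% to 62.7% of the summed sestrin FPKM in WT rTreg cells, 43.5% to 47.5% in Foxp1-deficient rTreg, 45.0% to 45.2% in WT aTreg and 29.1% to 30.6% in Foxp1-deficient aTreg cells. The share of Sesn2 was lowest in WT rTreg (3.12% to 3.42%) and highest in Foxp1-deficient aTreg cells (13.7% to 15.1%). For both genes the ranges of Foxp1-deficient rTreg and WT aTreg cells lay between these groups, and for Sesn2 they were 7.45% to 9.25% and 7.21% to 9.09% and overlapped each other. The share of Sesn3 was 34.2% to 36.0% in WT rTreg and 55.7% in both Foxp1-deficient aTreg libraries. Shares of the replicates of a group lay close together although the summed level differed between them. The sum itself was 64.1 to 80.5 FPKM in WT rTreg and 67.2 to 82.6 FPKM in WT aTreg cells, and 46.6 to 57.3 and 46.8 to 56.6 FPKM in the Foxp1-deficient groups. Sums did not overlap between genotypes within a subset and overlapped between subsets within a genotype.

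**Figure D2:**
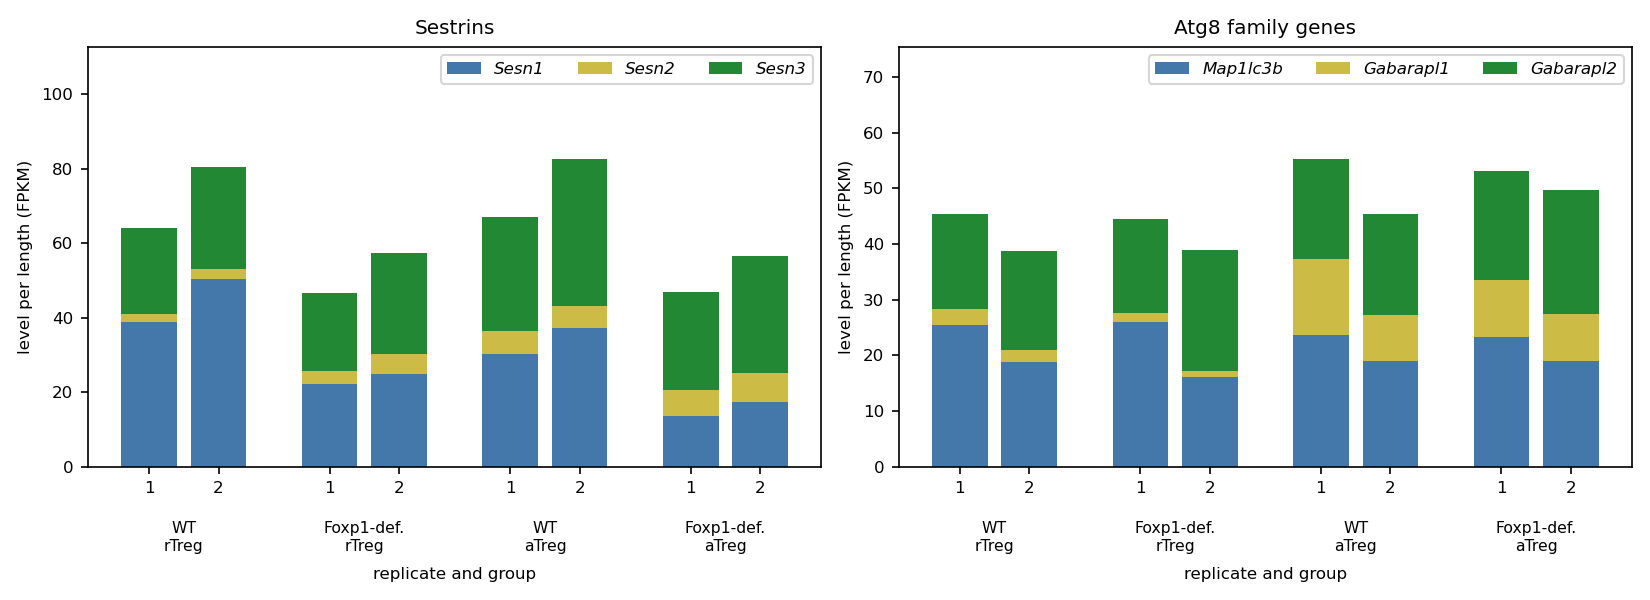
Stacked FPKM (y axes, from 0) of the 3 sestrins (left) and of the Atg8-like genes Map1lc3b, Gabarapl1 and Gabarapl2 (right) in each of the 8 libraries (x axes, replicate 1 and 2 of each group). The Sesn1 block is tallest in WT rTreg (38.8 and 50.5 FPKM) and shortest in Foxp1-deficient aTreg cells (13.6 and 17.3 FPKM). The Gabarapl1 block is thin in rTreg and thicker in aTreg libraries.

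Of the genes that carry out autophagy, Gabarapl1 varied most, from 2.17 to 26.7 CPM. It encodes an Atg8-like protein that is coupled to autophagosome membranes and is a known FoxO target, and lies on chromosome 6 (129533160 to 129542346, plus strand). It had 5.62 and 4.40 CPM in WT rTreg and 3.35 and 2.17 CPM in Foxp1-deficient rTreg cells, from 61, 56, 21 and 30 counts. In aTreg cells it had 26.7 and 16.4 CPM in WT and 20.1 and 17.3 CPM in Foxp1-deficient libraries, from 240 to 256 counts. Every aTreg library was thus above every rTreg library. The level was 4.21-fold higher in aTreg than rTreg cells in WT (log2 fold change 2.07 ± 0.17, adjusted p = 0.000112) and 6.98-fold higher in Foxp1-deficient cells (2.80 ± 0.20, adjusted p = 3.49e-05). Both calls stood in each alternative fit and without each library, where adjusted p reached at most 0.00412.

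The lower Gabarapl1 level in Foxp1-deficient rTreg cells was less firm. Ranges did not overlap and the log2 fold change was -0.89 ± 0.22 (adjusted p = 0.0417), or 1.86-fold lower. That call was lost with no replicate block (adjusted p = 0.238), with limma-voom (adjusted p = 0.0945), with DESeq2 (adjusted p = 0.0685) and with the rTreg libraries alone (adjusted p = 0.0732). It was lost as well without WT rTreg replicate 1 (adjusted p = 0.121) or replicate 2 (adjusted p = 0.188) and without Foxp1-deficient rTreg replicate 1 (adjusted p = 0.117) or replicate 2 (adjusted p = 0.270), at log2 fold changes of -0.98 to -0.79. In aTreg cells genotype ranges overlapped, with a log2 fold change of -0.16 ± 0.15 (adjusted p = 0.570). The difference between the genotype effects did not pass the test (log2 0.73 ± 0.27, adjusted p = 0.308). Gabarapl1 and Atg7 are on the chromosome of Foxp1, at 30.01 and 15.12 megabases from it, and whether flanking sequence of the targeted allele differed between the genotypes was not tested. The annotation places Gm44243 (at most 12 counts, same strand) and, on the other strand, 1700101I11Rik (at most 3 counts) across Gabarapl1. Reads in stretches shared with 1700101I11Rik cannot be assigned without strand, and strand would not separate those shared with Gm44243.

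Its relatives Map1lc3b and Gabarapl2 passed no test. Map1lc3b, which encodes LC3B, the usual marker of autophagosomes, had 190 and 145 CPM in WT rTreg, 199 and 126 CPM in Foxp1-deficient rTreg, 173 and 139 CPM in WT aTreg and 170 and 145 CPM in Foxp1-deficient aTreg cells. Groups overlapped in all 4 comparisons, and its log2 fold changes ran from -0.09 to 0.02 with adjusted p-values of 0.510 to 0.944. Gabarapl2 had 39.6 and 42.5 CPM in WT rTreg, 39.5 and 52.7 CPM in Foxp1-deficient rTreg, 40.5 and 41.2 CPM in WT aTreg and 44.2 and 52.4 CPM in Foxp1-deficient aTreg cells. Its log2 fold change between genotypes was 0.17 ± 0.10 in rTreg (adjusted p = 0.314) and 0.24 ± 0.10 in aTreg cells (adjusted p = 0.196). Gabarapl1 accordingly made up 5.50% to 6.18% of the summed FPKM of these 3 genes in WT rTreg, 2.66% to 3.68% in Foxp1-deficient rTreg, 18.4% to 24.6% in WT aTreg and 17.1% to 19.4% in Foxp1-deficient aTreg cells.

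Ulk1, the kinase that starts autophagy, had 78.8 and 71.5 CPM in WT rTreg, 80.6 and 75.1 CPM in Foxp1-deficient rTreg, 91.1 and 91.8 CPM in WT aTreg and 100 and 116 CPM in Foxp1-deficient aTreg cells. All 4 aTreg libraries were above the 4 rTreg libraries. The log2 fold change of aTreg over rTreg cells was 0.28 ± 0.09 in WT (adjusted p = 0.0487, and 0.111 with no replicate block) and 0.48 ± 0.09 in Foxp1-deficient cells (adjusted p = 0.00456), both under the fold threshold. Between genotypes it was 0.05 ± 0.09 in rTreg (adjusted p = 0.785) and 0.24 ± 0.09 in aTreg cells (adjusted p = 0.154).

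Atg7, the activating enzyme of Atg8 coupling, had 29.5 and 25.5 CPM in WT rTreg, 30.9 and 29.5 CPM in Foxp1-deficient rTreg, 43.1 and 34.7 CPM in WT aTreg and 36.3 and 34.2 CPM in Foxp1-deficient aTreg cells. Here too each aTreg library was above all rTreg libraries. The log2 fold change of aTreg over rTreg cells was 0.50 ± 0.09 in WT (adjusted p = 0.00544) and 0.22 ± 0.09 in Foxp1-deficient cells (adjusted p = 0.104). Between genotypes it was 0.15 ± 0.10 in rTreg (adjusted p = 0.368) and -0.13 ± 0.09 in aTreg cells (adjusted p = 0.431), and the difference of those effects did not pass the test (log2 -0.28 ± 0.13, adjusted p = 0.436).

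The cargo receptors were steadier. Sqstm1, which binds ubiquitin-tagged cargo and is itself consumed by autophagy as a protein, lay between 207 and 257 CPM in all libraries, and its 4 log2 fold changes were between 0.10 and 0.12 with adjusted p-values of 0.199 to 0.232. Within each replicate number its level was higher in Foxp1-deficient than WT cells, but by 0.08 to 0.17 on the log2 scale. Bnip3l, a receptor on mitochondria, lay between 94.0 and 139 CPM, with the lowest and a high value (94.0 and 126 CPM) both in Foxp1-deficient rTreg cells. Its largest log2 fold change, 0.25 ± 0.09 between Foxp1-deficient aTreg and rTreg cells, did not pass the test (adjusted p = 0.0730). Bnip3l-ps, an annotated processed copy of this gene, had 82 to 189 counts against 590 to 1935 for Bnip3l, so reads shared by both leave the Bnip3l level uncertain.

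**Figure D3:**
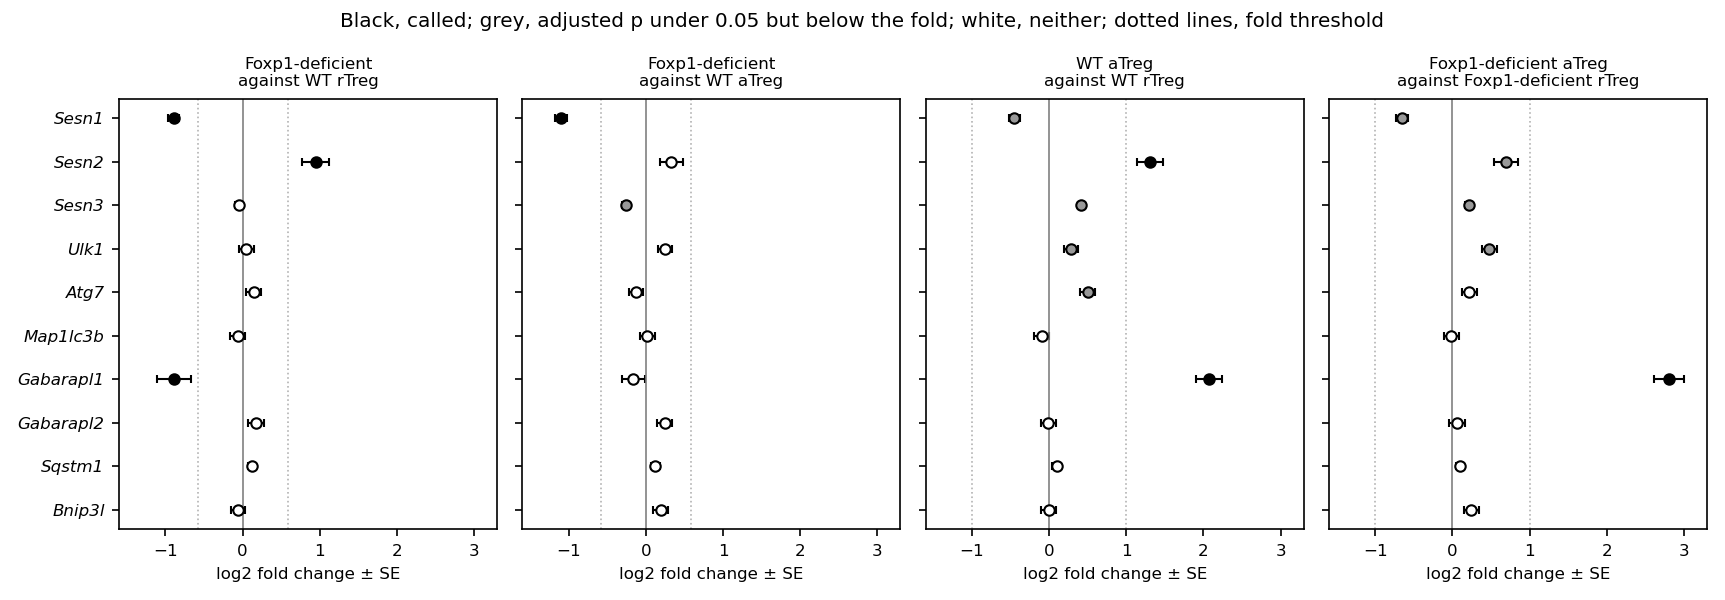
Log2 fold change (x axes) of the 10 genes (rows) in the 4 comparisons, with bars of 1 SE from edgeR; black points pass the adjusted p and the fold, grey points the adjusted p only, and white points neither, and dotted lines mark 1.5-fold or 2-fold. Sesn1 lies left of 0 in all panels (-1.10 to -0.45) and Gabarapl1 lies at 2.07 and 2.80 in the subset panels.

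Between genotypes in rTreg cells 1 member was higher (Sesn2) and 2 were lower (Sesn1 and Gabarapl1), with 2.90% and 2.70% of all genes called in these directions. By adjusted p alone it was 3 of 10 members and 12.0% of all genes. Between genotypes in aTreg cells 0 were higher and 1 was lower (Sesn1), with 2.37% and 1.66% of all genes. By adjusted p alone it was 2 members (Sesn1 and Sesn3) and 6.88% of all genes. At an unadjusted p under 0.05 there were 4 members, with Ulk1 and Gabarapl2 added, beside 3385 of the 14540 genes tested. With no replicate block 0 members passed by adjusted p in either genotype comparison, beside 300 (rTreg) and 81 (aTreg) of the 14540 genes tested. The median log2 fold change of the members was -0.0026 in rTreg (all genes 0.0029) and 0.069 in aTreg cells (all genes 0.0018).

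Between WT subsets 2 members were higher in aTreg cells (Sesn2 and Gabarapl1) and 0 lower, with 9.50% and 2.83% of all genes. Between Foxp1-deficient subsets 1 was higher (Gabarapl1) and 0 lower, with 11.3% and 4.39% of all genes. By adjusted p alone 6 of 10 members passed in WT (31.9% of all genes) and 5 of 10 in Foxp1-deficient cells (40.1%). With no replicate block these became 3 and 2 members, beside 2373 (WT) and 3482 (Foxp1-deficient) of the 14540 genes tested. The medians were 0.19 (all genes -0.0046) and 0.22 (all genes -0.018). For the difference between genotype effects 0 members passed, with 0.330% of all genes. At an unadjusted p under 0.05 there were 3 members (Sesn2, Sesn3 and Gabarapl1), beside 1862 of the 14540 genes tested. No other fit of the 8 libraries gave a member an adjusted p under 0.05 for that difference.

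The rest of the pathway was read from a list of 121 other genes, from GATOR2 to the lysosome, of which 120 were in the tables and 116 passed the filter. In rTreg cells 2 of 116 were higher in Foxp1-deficient cells and 2 were lower, beside 2.90% and 2.70% of all genes tested. By adjusted p alone it was 18 of 116 (15.5%, all genes 12.0%). Vamp8, a SNARE protein for fusion of autophagosomes with lysosomes, went from 52.6 and 47.8 CPM to 77.5 and 94.7 CPM (log2 fold change 0.78 ± 0.12, adjusted p = 0.00823). Lamp2, a lysosomal membrane protein, went from 23.1 and 22.4 CPM to 33.2 and 35.3 CPM (0.59 ± 0.11, adjusted p = 0.0142). Both were higher in Foxp1-deficient libraries without overlap. Ctsl, a lysosomal protease, went from 13.9 and 7.31 CPM down to 5.74 and 4.12 CPM (-1.08 ± 0.28, adjusted p = 0.0487), and Prkab2, a subunit of the energy sensor AMPK, from 16.8 and 20.2 CPM down to 11.2 CPM in both libraries (-0.73 ± 0.15, adjusted p = 0.0208). In aTreg cells 0 of 116 were called between genotypes (all genes 2.37% higher and 1.66% lower), and 7 of 116 passed by adjusted p alone (6.03%, all genes 6.88%). Of these, 4 were higher and 3 lower in Foxp1-deficient cells. Lamp2 was among the higher ones (log2 fold change 0.58 ± 0.10, adjusted p = 0.0156), just short of 1.5-fold.

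GATOR2, the complex that sestrins bind, had 0 of 5 genes called in any comparison, and the other genes of the ULK complex 0 of 4. Neither were any of the 10 other conjugation genes or the 8 of the PI3-kinase complex called. With 1.66% to 11.3% of all genes called per direction in the 4 comparisons, counts of 0 in lists this short do not set these complexes apart. Between WT subsets 4 of 116 genes were higher and 2 lower in aTreg cells, beside 9.50% and 2.83% of all genes, and 47 of 116 passed by adjusted p alone (40.5%, all genes 31.9%). Optn, a receptor, had only 9, 7, 22 and 50 counts but rose (log2 fold change 2.04 ± 0.38, adjusted p = 0.00554), as did Hif1a, the hypoxia factor (1.29 ± 0.09, adjusted p = 5.91e-05), Ctsb, a lysosomal protease (1.11 ± 0.09, adjusted p = 9.89e-05) and Rragb, a Rag GTPase (1.03 ± 0.17, adjusted p = 0.00326). Deptor, an mTOR inhibitor, fell on 25, 22, 5 and 11 counts (-1.58 ± 0.38, adjusted p = 0.0168), and Ctsl fell (-1.32 ± 0.28, adjusted p = 0.00949). In Foxp1-deficient cells 6 of 116 were higher and 1 was lower, beside 11.3% and 4.39% of all genes, and 49 passed by adjusted p alone (42.2%, all genes 40.1%). Optn was 4.04-fold, Rragb 2.82-fold, Ctsb 2.35-fold, Rragd, also a Rag GTPase, 2.33-fold, Hif1a 2.31-fold and Vmp1, which acts in membrane supply, 2.18-fold higher, while Deptor was 3.99-fold lower. For the difference between genotype effects 0 of the 116 passed, beside 0.330% of all genes.

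**Figure D4:**
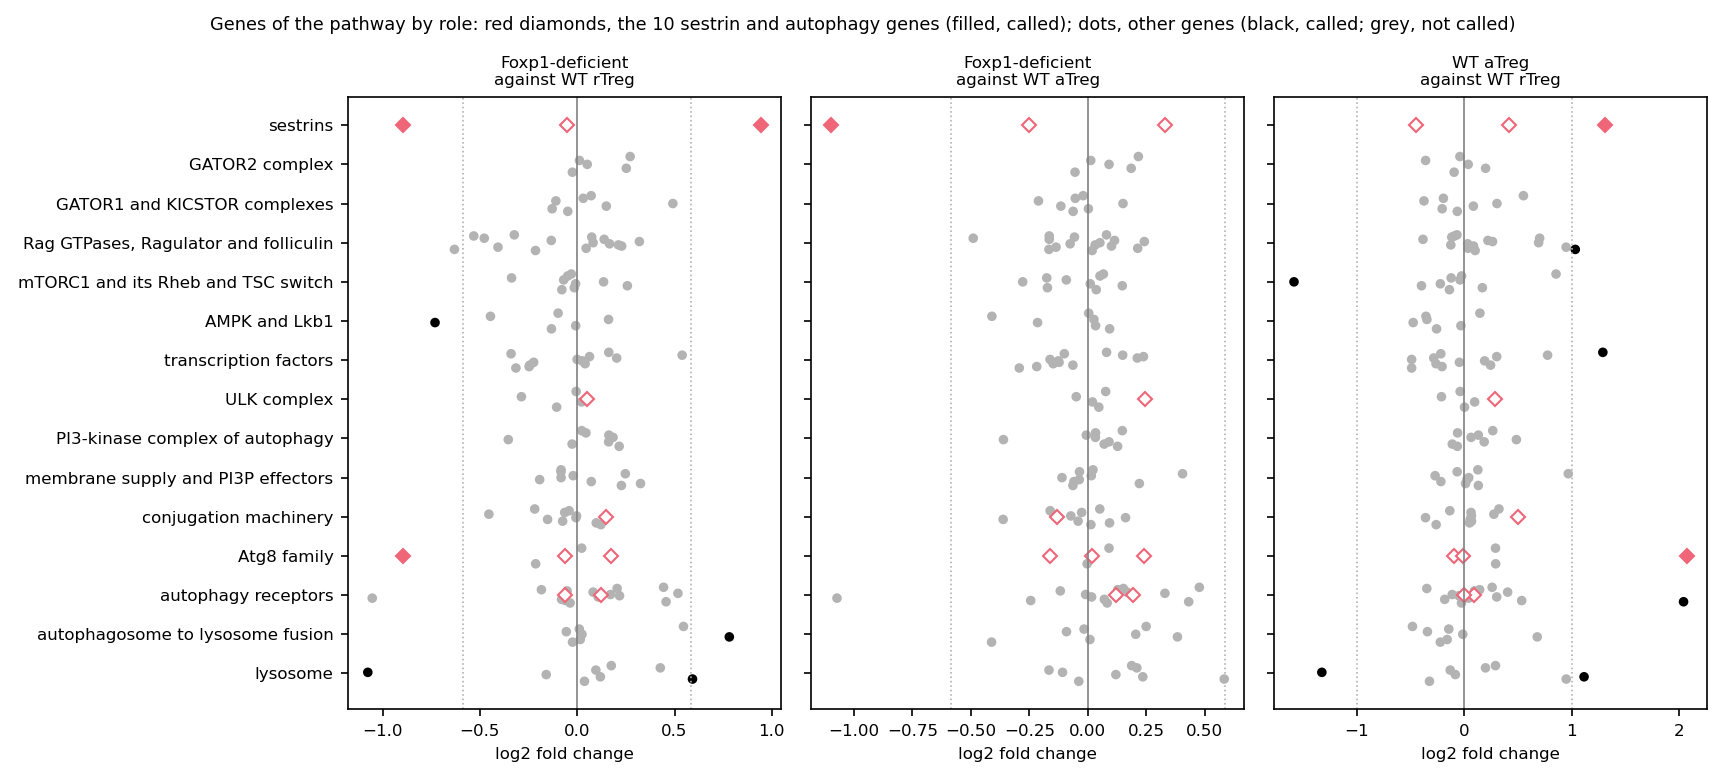
Log2 fold change (x axes) of the pathway genes by role (rows) between genotypes in rTreg and aTreg cells and between WT subsets. Red diamonds are the 10 sestrin and autophagy genes, filled where called, and dots are the other genes, black where called (4, 0 and 6 of 116). The sestrin row spans -0.89 to 0.95 in rTreg cells, while the GATOR2 row has no called gene in any panel.

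The 8 libraries share groups and replicate numbers. Over them, the genes of most similar pattern to the 3 members called between genotypes were found by Pearson r of log2 CPM. For Sesn1 these were Mturn (0.985), Fam189b (0.982) and Neurl4 (0.982). For Sesn2 they were Aldoa (0.998), Serpinb6b (0.990) and Dnajc1 (0.988). For Gabarapl1 they were Mansc1 (0.996), Gna12 (0.996) and Dnase2a (0.995). Among the members themselves, r was furthest from 0 for Sesn1 and Sqstm1 (-0.90) and for Atg7 and Gabarapl1 (0.83), again over 8 libraries.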

How the data were processed

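RNA of sorted rTreg and aTreg cells was sequenced in 8 libraries, 2 in each of 4 groups named by the sample titles. The authors trimmed paired-end reads with trim_galore, removed duplicates with Picard, and deposited the count of reads per Ensembl gene from htseq-count, without normalization. The submitters' processing notes name HISAT2 2.0.5, HTSeq and mm10, and no source used here states the strand setting. The authors also deposited FPKM values, which equal counts divided by library total and gene length (relative spread over libraries at most 0.000538 for 27594 genes). They carry no TMM factor and entered no test. They were used here to compare levels between genes, and to give such levels, sums and shares by group. Removal of duplicates can lower the counts of highly expressed genes.

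Tests on the counts used edgeR 4.0.16 in R 4.3.3 (glmQLFit and glmQLFTest, TMM normalization, filterByExpr with a minimum count of 10) in 1 fit of all 8 libraries, in which each group had its mean and replicate number was a block. The study's methods state a paired analysis against a batch effect. Same-numbered libraries deviated together from their group means in each pair of groups (r = 0.355 to 0.597 across genes), which was taken as pairing. The replicate number also marks sex, and replicate 2 had the larger total count in each group. This r does not separate pairing of mice or batches from sex or depth. Genes were called at a Benjamini-Hochberg adjusted p under 0.05 over the 14540 genes tested with a change of 1.5-fold (genotypes) or 2-fold (subsets), and the difference between genotype effects at the adjusted p alone. SE is the size of the log2 fold change divided by the root of the test statistic F. The alternatives were no replicate block, limma-voom (limma 3.58.1), size factors by the median of ratios, DESeq2 1.42.0, all genes with a count, only the libraries of a comparison, leaving out each library, and leaving out all libraries of 1 replicate number (values with no test). The pipeline was tested on simulated counts, which held no replicate effect and so did not check the replicate block.

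The members, lists and markers were chosen with earlier results of these data known. All members are named. Of the pathway list the called genes are named, at most 6 per direction, and for each member called between genotypes the 3 genes with the highest r. Positions are from GENCODE M21 and promoter windows from RefSeq (both GRCm38, which is mm10). Of the pathway list Prkag3 was not found by symbol, and Prkaa2, Wipi1, Wdfy3 and Park2 did not pass the filter (at most 9 counts). Of the marker lists not given with results, the summed CPM over all libraries was at most 16.7 for CD8 T cells, 20.1 for B cells, 9.72 for monocytes and macrophages, 3.59 for NK cells and 3.35 for erythroid cells, and it was 104 to 148 in rTreg and 1053 to 1472 in aTreg libraries for the activated Treg list. The list of resting markers is not reported here.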

Additional observations from a re-analysis of the deposited data

Results flagged for a closer look

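The effect of genotype on the Foxp1 count differed between subsets by the interaction term: the log2 fold change was lower in aTreg than in rTreg cells by a difference of -0.92 ± 0.13 (SE, adjusted p = 0.0477, edgeR), and it pointed down in all 4 pairs of same-numbered libraries. This call was lost with no replicate block (adjusted p = 0.288), with median-of-ratios size factors (adjusted p = 0.0519) and without 6 of the 8 libraries in turn: WT rTreg replicate 1 (adjusted p = 0.141) or 2 (adjusted p = 0.0941), WT aTreg replicate 2 (adjusted p = 0.0986), Foxp1-deficient rTreg replicate 1 (adjusted p = 0.177) or 2 (adjusted p = 0.269), and Foxp1-deficient aTreg replicate 2 (adjusted p = 0.160). The difference was -1.09 to -0.75 over the alternatives with a test. No such difference passed the test for a sestrin or autophagy gene.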

How the results depend on the processing

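With no replicate block, the genotype comparisons gave 0 called members in rTreg and 0 in aTreg cells (3 and 1 with the block), 266 and 77 called genes in all (814 and 586 with it), and 0 genes for the difference between genotype effects (48 with it; 884 at an unadjusted p under 0.05). With no filter on low counts 1035 genes were called between genotypes in aTreg cells and 573 for the difference, with only the libraries of the comparison 349 in aTreg cells, and with DESeq2 279 for the difference. Leaving out 1 library gave 1 to 3 members in rTreg cells, and 214 to 861, 117 to 537 and 1 to 167 genes for rTreg, aTreg and the difference. The cause of these shifts was not tested. Median-of-ratios scaling moved the median of all genes by at most 0.016.

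Only log2 fold changes that passed no test reversed. With no filter Bnip3l between WT subsets was 0.000836 and Map1lc3b between Foxp1-deficient subsets 0.027, and with no replicate block the difference for Sqstm1 was -0.00017. Leaving out 1 library, or all libraries of 1 replicate number (values with no test), was also tried. In rTreg genotypes it gave -0.0555 to 0.13 for Ulk1, -0.25 to 0.10 for Map1lc3b, -0.25 to 0.11 for Bnip3l and -0.0028 to 0.31 for Gabarapl2. In aTreg genotypes it gave -0.10 to 0.13 for Map1lc3b and -0.41 to 0.0779 for Gabarapl1. Between WT subsets it gave -0.12 to 0.11 for Gabarapl2 and -0.10 to 0.0875 for Bnip3l, and between Foxp1-deficient subsets -0.23 to 0.21 for Map1lc3b and -0.0524 to 0.23 for Gabarapl2. The difference between genotype effects ranged from -0.10 to 0.26 for Map1lc3b, -0.052 to 0.23 for Gabarapl2 and -0.055 to 0.0575 for Sqstm1. Of the other member values with a test, 648 kept direction and side of the threshold and 14 kept direction and lost the call. Of the 100 values from 1 replicate number alone, 11 had the opposite sign, in results that passed no test. Another 2 moved by more than the SD between numbers (Atg7 between Foxp1-deficient subsets, 0.231, and the difference for Sesn2, -0.488). That SD comes from the same 2 values, and the fit of all libraries lies near their mean. Few values could thus exceed it, and the count is no measure of stability. Depth limited Gabarapl1 most, with 21 to 61 counts per rTreg library.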

Other observations

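Between replicate numbers, which also mark sex, 8 of the 10 genes differed the same way in all 4 groups. The share of all genes that did so was not counted. Across all genes tested, these differences correlated between groups (r = 0.355 to 0.597), so the 8 are not set apart by this. Sesn1 was higher in replicate 2 than in replicate 1 by 0.20 to 0.43 on the log2 CPM scale, and Sesn3 by 0.30 to 0.40. Gabarapl2 (0.03 to 0.42) and Bnip3l (0.04 to 0.42) were also higher in replicate 2. Gabarapl1 had log2 differences of -0.70 to -0.22 for replicate 2 minus replicate 1, Map1lc3b of -0.66 to -0.22, Atg7 of -0.31 to -0.07 and Sqstm1 of -0.16 to -0.07. Sesn2 and Ulk1 went both ways. With 1 library per group and number these are values without a test. The labels tie no batch to the replicate number, and replicate 2 had the larger total count in each group. Sex, depth and any batch thus cannot be told apart.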
